A study of Mus musculus with 12 samples.

Results

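The 7 transcripts described here encode the islet hormones insulin (Ins1 and Ins2), glucagon (Gcg), somatostatin (Sst), pancreatic polypeptide (Ppy), peptide YY (Pyy) and islet amyloid polypeptide (Iapp). They were taken by gene symbol, not by a cut on their values, from the 32285 genes of 6 single-cell RNA-seq (scRNA-seq) count matrices. Earlier results of these data were known when the genes were chosen. Every deposited cell barcode was kept. CD8 T cells were sorted from NOD/ShiLtJ mice, the nonobese diabetic strain, which were prediabetic females of 10 to 15 wk of age. Tetramer-positive (islet tet+) and tetramer-negative (islet tet-) cells came from the islets and tetramer-positive cells (spleen tet+) from the spleen, and each group was sequenced in Rounds 1 and 2, each from 10 pooled mice. The tetramer was Kd loaded with NRP-V7, a mimotope of the β cell antigen IGRP (the product of G6pc2), and all sorted cells were CD45.1+ and CD8+ and lacked CD4, B220 and CD11b. The paper also states that the spleen cells were sorted as CD44+. Its methods list a CD44 stain but name no such gate for islet cells. Islets were freed with collagenase, picked by hand and dispersed without enzymes, whereas spleen cells were first enriched for CD8 T cells on beads. Tissue, preparation and any difference in the CD44 gate thus cannot be told apart. No tetramer-negative spleen cells were sequenced. Between tetramer-negative islet cells and spleen cells, tissue and tetramer gate thus differ together and cannot be told apart either. Each library is a pool with no label for the mouse of a cell.

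In a healthy islet, β cells make insulin and, in the same granules, islet amyloid polypeptide, while α cells make glucagon, δ cells somatostatin and PP cells pancreatic polypeptide. Peptide YY belongs to the same peptide family as pancreatic polypeptide and is made by endocrine cells of the gut and by some islet cells. The precursors are cut and packed into dense-core granules by a shared set of proteins, including prohormone convertases and granins. Mice carry a pair of insulin genes, Ins1 and Ins2, of which Ins1 is a retroposed copy. In this strain, T cells enter the islets and destroy the β cells, which leads to diabetes.

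By the GENCODE vM21 annotation of GRCm38 (mm10), all 7 are protein-coding genes. Ins1 (ENSMUSG00000035804) lies at chr19:52264297-52265476 on the + strand and Ins2 (ENSMUSG00000000215) at chr7:142678656-142743381 on the - strand. The longest stretch that their transcripts share letter for letter is 56 bases, and no window of 91 bases, the length of the RNA reads of Round 1, is found in both. Iapp (ENSMUSG00000041681) at chr6:142298423-142303961 on the + strand overlaps Slco1a5, which lies on the other strand. Gcg (ENSMUSG00000000394) lies at chr2:62474530-62483650 and Sst (ENSMUSG00000004366) at chr16:23889573-23890958, both on the - strand. Ppy (ENSMUSG00000017316) at chr11:102099930-102101319 and Pyy (ENSMUSG00000017311) at chr11:102106676-102107832 are neighbors on the - strand, 5356 bases apart with no annotated gene between them, and their transcripts share at most 10 bases in a row.

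Ppy, Pyy and Sst led the only barcodes in which hormones made up a large share of the RNA. The 100 bases before the RefSeq start of each are shown as background on these genes. The sequences are from RefSeq (GRCm38.p6), where 6 of the 7 genes had an entry and Ins2 had none, and the first of 2 entries is given for Pyy. GENCODE places the start of Sst slightly farther upstream, so that its stretch lies inside the gene as given above. Capitals mark TATAA, the core of the TATA box, and TGACGTCA, the cAMP response element.
Ppy, chr11:102101320-102101419, - strand: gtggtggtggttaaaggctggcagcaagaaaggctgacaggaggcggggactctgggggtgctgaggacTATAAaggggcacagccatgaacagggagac
Pyy, chr11:102107833-102107932, - strand: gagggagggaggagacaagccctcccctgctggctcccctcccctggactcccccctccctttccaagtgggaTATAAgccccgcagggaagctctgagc
Sst, chr16:23890845-23890944, - strand: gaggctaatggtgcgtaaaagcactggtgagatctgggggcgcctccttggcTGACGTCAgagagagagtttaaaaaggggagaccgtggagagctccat
Searched on both strands of the same 100 bases, TATAA was found in 5 of the 6 genes (Ins1, Gcg, Ppy, Pyy and Iapp) and in 10.2% of 32851 promoter entries of the mouse. TGACGTCA was found for Sst alone of the 6 genes and in 1.15% of all entries, and neither match says that a factor bound there.

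The deposited matrices held 26818 barcodes and 120562718 unique molecular identifiers (UMIs, counts of captured RNA molecules). Per library, 1373 to 9877 barcodes and 7052689 to 49009797 UMIs were listed, the median barcode held 3668 to 4216 UMIs in islet and 2595 and 2817 UMIs in spleen, and the smallest held 500. The 9 T cell markers (Cd3d, Cd3e, Cd3g, Cd8a, Cd8b1, Trac, Trbc1, Trbc2 and Lck) summed to 5380 to 6804 CPM (UMIs per 1000000 UMIs of the library) in islet and to 7110 and 7143 CPM in spleen. Libraries shared between 5 and 77 barcodes in the 15 pairs of libraries; none of the shared ones held a hormone UMI in both libraries, and 3 with a hormone UMI were also listed elsewhere. Intervals below are exact 95% intervals and cover counting error only, and p-values rest on 2 libraries per group. Where 0 were counted, the level that this allows is given at 3 counts. That level lies below the upper end of the exact interval, which for the share of spleen barcodes with a hormone UMI is 0.0578%.

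Hormone RNA was found in all 4 islet libraries and in neither spleen library. In tetramer-negative islet cells, the 7 genes held 4575 of 35140260 UMIs in Round 1 and 467 of 49009797 in Round 2. In tetramer-positive islet cells, they held 35 of 7052689 UMIs in Round 1 and 121 of 10722500 in Round 2. In spleen, 0 of 10457017 and 0 of 8180455 UMIs were from these genes, which allows up to 0.287 and 0.367 CPM. The islet total thus was 5198 UMIs in 289 of 20441 barcodes (1.41%, 95% interval 1.26 to 1.59%), and the share per library was 1.27% and 1.45% (tetramer-negative) and 1.97% and 1.38% (tetramer-positive), with overlapping intervals. In spleen, 0 of 6377 barcodes held a hormone UMI, which allows a share of up to 0.0470%. The UMIs were very unevenly spread: 224 islet barcodes held exactly 1 and 30 held 2, while 15 held 5 or more and together 4848.

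A barcode was called hormone-rich where the 7 genes made up at least 5% of its UMIs. There were 2, both tetramer-negative, 1 in each round (2 of 20441 islet barcodes, 0.00978%, 95% interval 0.00118 to 0.0353%), and together they held 4671 UMIs, or 89.9% of all islet hormone UMIs. Without the tetramer-negative library of Round 1, the share was 38.5%. Hormones made up 71.0% and 39.1% of their RNA, and the barcodes just below the limit held 3.91%, 2.06% and 1.63%. None was seen in 3262 tetramer-positive islet barcodes, which allows up to 0.0920%, or in 6377 spleen barcodes, which allows up to 0.0470%. In the plot of each barcode's hormone UMIs against its depth, these barcodes stand above all others.

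**Figure D1:**
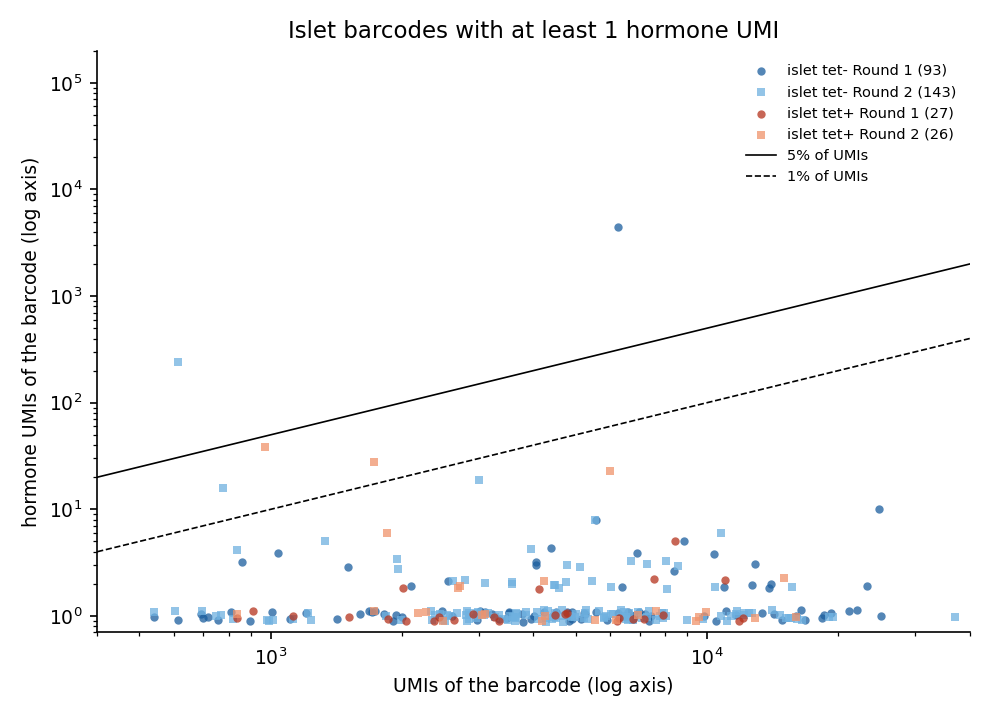
Each point is an islet barcode with at least 1 hormone UMI, plotted by its total UMIs (x axis, log) and its hormone UMIs (y axis, log; values under 5 are spread slightly so that points do not hide each other), with lines at 5% and 1% of UMIs. The 2 barcodes above the 5% line hold 4431 and 240 hormone UMIs, and most of the 289 points lie at 1 UMI.

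The first hormone-rich barcode, from tetramer-negative islet cells of Round 1, was rich in Ppy. It held 3883 UMIs of Ppy, 547 of Pyy and 1 of Iapp among 6239 UMIs and 1013 genes, with none of Ins1, Ins2, Gcg or Sst. The neighboring genes Ppy and Pyy shown above thus were both at their highest in the same barcode, which held 99.9% of the Ppy and 99.6% of the Pyy UMIs of its library. Of the 17 genes of hormone processing and the secretory granule, 12 were detected with 73 UMIs. They were led by Resp18, a granule protein of endocrine cells, with 30 UMIs, Pcsk1n, an inhibitor of prohormone convertase 1, with 14, and Scg5, the chaperone of prohormone convertase 2, with 10. Resp18 had no UMI in the other barcodes of that library. Other genes with most of their library's UMIs in this barcode, picked once the values were known, were Gpx3 (12 UMIs), Cltrn (11 UMIs), which encodes collectrin, and Ttr (7 UMIs), which encodes the carrier transthyretin. The 9 T cell markers were at 0 UMIs, and no productive TCR contig carried this barcode.

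The second, from tetramer-negative islet cells of Round 2, was rich in Sst and much shallower. It held 193 UMIs of Sst, 43 of Iapp and 4 of Pyy among 614 UMIs and 277 genes, with none of Ins1, Ins2, Gcg or Ppy. Of the 17 granule genes, 7 were detected with 14 UMIs, led by Resp18 with 5, and Rbp4, a retinol carrier on the list for δ cells, had 4 UMIs. The T cell markers were again at 0 and no productive TCR contig was found. Mitochondrial UMIs made up 0.176% and 0% of the RNA of the Ppy-rich and Sst-rich barcodes, so that both passed the study's limits of under 5% mitochondrial UMIs and 200 to 3500 genes for islets. The paper also left out a cluster of pancreatic exocrine cells from the islet data, and whether that cluster held either barcode is not known. Neither barcode was given the name of a cell type, for which 3 detected markers were asked, the hormones included. The list for PP cells holds only Ppy and Pyy, so no barcode could reach that number, and both were detected in the Ppy-rich one. Of the list for δ cells, only Sst and Rbp4 were detected in the Sst-rich barcode.

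The other 13 barcodes with 5 or more hormone UMIs held between 5 and 38, and 12 of them also held T cell marker UMIs. The exception was the highest, from tetramer-positive islet cells of Round 2, with 23 UMIs of Ins2, 11 of Ins1 and 4 of Iapp among 971 UMIs. This barcode had no T cell marker and no TCR contig, and 7 of 8 myeloid markers were detected in it with 16 UMIs, among them the complement genes C1qc (5 UMIs), C1qa (3) and C1qb (2). Its leading other genes, seen after the fact, were Cd74 (32 UMIs) and H2-Aa (9 UMIs) of antigen presentation, the chemokine Cxcl13 (22 UMIs) and Apoe (7 UMIs). None of the 17 granule genes was detected in it. Across the islet libraries, 5 barcodes had at least 5 myeloid UMIs and more myeloid than T cell UMIs, and the other 4 held no hormone UMI.

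The next barcodes of the same library combined insulin RNA with T cell RNA. The next held 19 UMIs of Ins2, 8 of Ins1 and 1 of Iapp, 6 T cell marker UMIs and a productive β chain, and the one after it held 12 of Ins1, 8 of Ins2 and 3 of Iapp, 45 T cell marker UMIs and both a productive α and a productive β chain. In neither was a granule gene detected. In tetramer-negative cells of Round 2, the next 2 barcodes were led by Sst. One held 14 UMIs of Sst, 2 of Ppy, 2 of Pyy and 1 of Iapp beside 21 T cell marker UMIs, and the other held 15 of Sst and 1 of Iapp among 778 UMIs, of which 15.7% were mitochondrial. The remaining 8 barcodes held 5 to 10 hormone UMIs. The highest of these had 24732 UMIs and 4756 genes, above the study's limit of 3500 genes, with 5 UMIs of Sst, 3 of Ins2, 1 of Gcg and 1 of Iapp. Another held 4 UMIs of Ins2 and 4 of Iapp with both TCR chains, and carried the only UMI of G6pc2, the gene of IGRP, in the 6 libraries. Whether any of these barcodes held more than 1 cell was not tested, as doublets were not called.

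**Figure D2:**
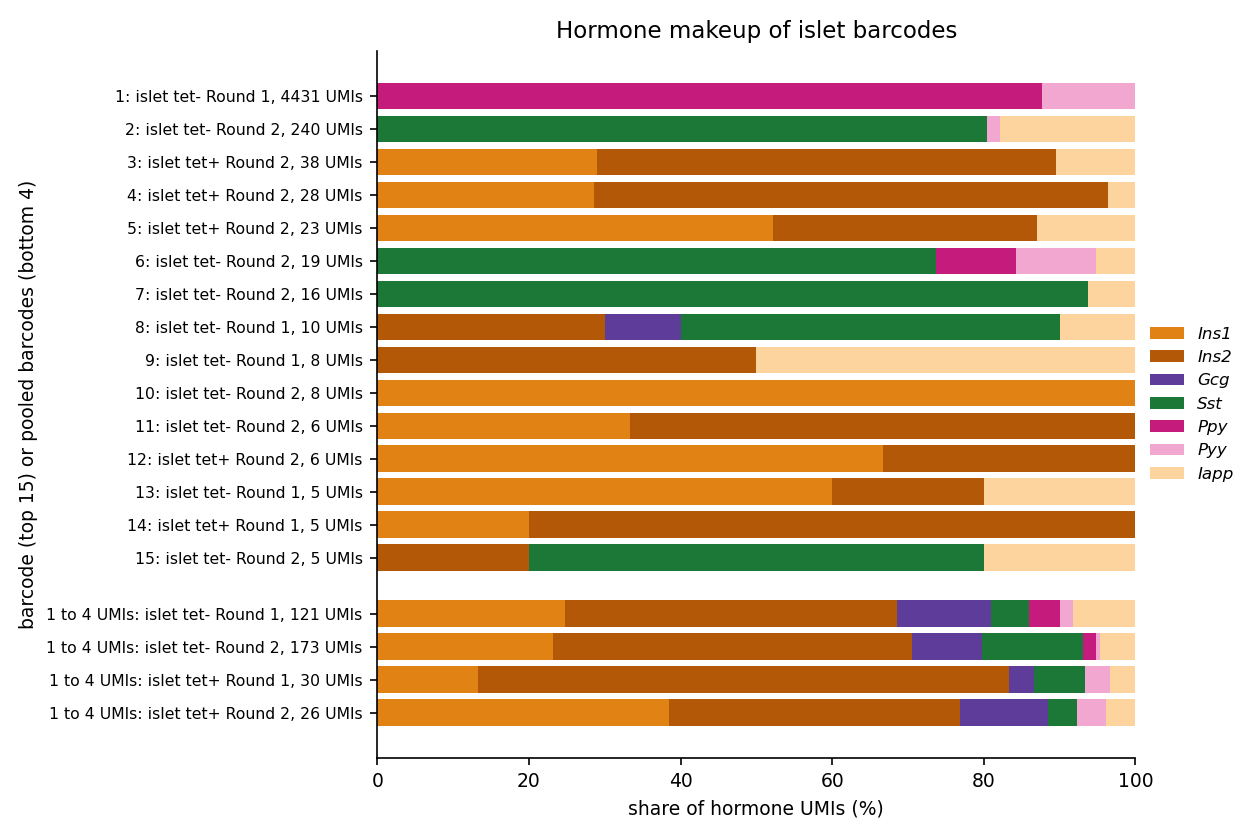
Stacked bars give the share of hormone UMIs (x axis, %) from each of the 7 genes in the 15 barcodes with 5 or more hormone UMIs, numbered from the highest, and in the pooled barcodes with 1 to 4 hormone UMIs of each islet library. Ppy with Pyy and Sst with Iapp fill the first and second bars, Ins1 and Ins2 lead the 3 bars after them, and in the pooled barcodes insulin takes 68.6 to 83.3%.

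The β cell hormones behaved differently from those of the hormone-rich barcodes: no barcode held more than 23 UMIs of Ins2 or 12 of Ins1. Ins2 had 61 (Round 1) and 87 (Round 2) UMIs among tetramer-negative islet barcodes, 25 and 62 among tetramer-positive ones, and 0 and 0 in spleen. These were 1.74, 1.78, 3.54 and 5.78 CPM in the islet libraries, with both tetramer-positive libraries above both tetramer-negative ones. Summed over the islet libraries, 143 barcodes held 235 UMIs of Ins2. For Ins1, the tetramer-negative islet libraries gave 33 and 50 UMIs, the tetramer-positive islet libraries 5 and 45, and spleen 0 and 0. At 0.939, 1.02, 0.709 and 4.197 CPM, only the tetramer-positive library of Round 2 stood apart, and the groups overlapped. Iapp, whose product is released with insulin, had 17 and 54 UMIs in the tetramer-negative islet libraries, 1 and 9 in the tetramer-positive ones, and none in spleen. Of the 54 UMIs, 43 were in the Sst-rich barcode, and without the hormone-rich barcodes Iapp was at 0.455, 0.224, 0.142 and 0.839 CPM, with overlapping groups.

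Gcg was low and the most evenly spread of the 7. Both tetramer-negative islet libraries held 16 UMIs, the tetramer-positive ones 1 and 3, and spleen none. No barcode held more than 2 UMIs, and 35 barcodes held the 36 UMIs. For Sst, the counts were 11 and 248 UMIs in the tetramer-negative and 2 and 1 in the tetramer-positive islet libraries, with none in spleen. The Sst-rich barcode held 77.8% of the 248 UMIs, and 55 were left without it.

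Ppy and Pyy were all but absent outside 1 barcode. Ppy had 3888 and 5 UMIs in the tetramer-negative islet libraries and none in any other, and without the hormone-rich barcodes 5 and 5 were left. Pyy had 549 and 7 UMIs there, of which 2 and 3 were outside the hormone-rich barcodes, beside 1 UMI in each tetramer-positive islet library and none in spleen. The order of the genes in the islet total, Ppy, Pyy, Sst, Ins2, Ins1, Iapp and Gcg, thus became Ins2, Ins1, Sst, Iapp, Gcg, Ppy and Pyy once 2 barcodes were left out, with 235, 133, 69, 37, 36, 10 and 7 UMIs. The intervals of Iapp and Gcg, and those of Ppy and Pyy, overlapped. These are counts of molecules, in which a transcript gives 1 UMI whatever its length.

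**Figure D3:**
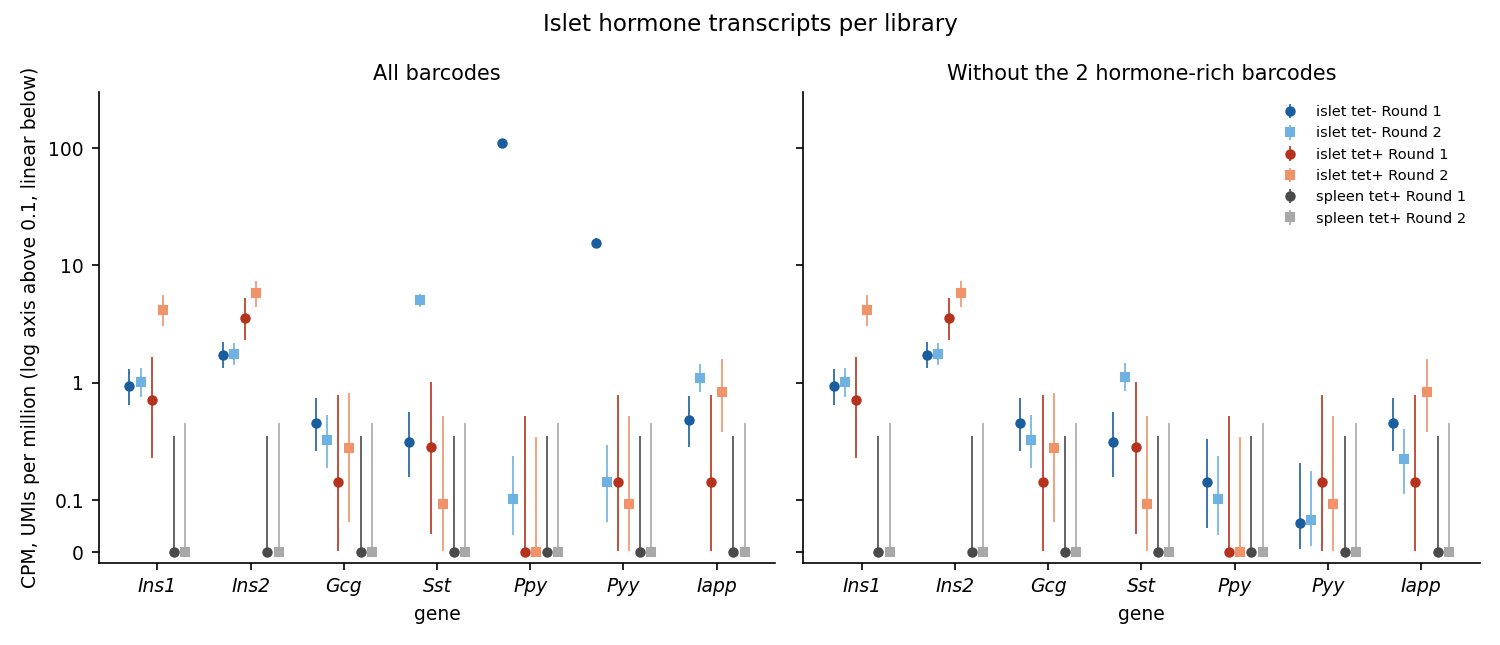
CPM (y axis, log above 0.1 and linear below) of each hormone gene (x axis) in each of the 6 libraries, over all barcodes (left) and without the 2 hormone-rich barcodes (right), with exact Poisson 95% intervals as bars. Ppy falls from 111 to 0.142 CPM in the tetramer-negative library of Round 1, the insulins do not move, and both spleen libraries lie at 0 for all 7 genes.

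Islet was compared with spleen on the UMIs summed per library, in a model over all genes and all 6 libraries. Of the 7 genes, Ins1 and Ins2 passed the filter on low counts and were among the 11530 genes tested. Ins2 was higher in tetramer-positive islet cells than in tetramer-positive spleen cells (edgeR quasi-likelihood test, adjusted p = 0.00270), as was Ins1 (adjusted p = 0.0236), where 15.5% of all genes tested were called higher in islet. As spleen held none, both passed the filter by their islet counts alone, so the number of members called supports nothing by itself. The call for Ins1 did not hold in 4 of the 6 fits that left out a library: its adjusted p was 0.0512 without the tetramer-positive islet library of Round 2, 0.0516 without the tetramer-negative islet library of Round 1, and 0.0796 and 0.0786 without the spleen libraries of Round 1 and Round 2. It held without the tetramer-positive library of Round 1 (adjusted p = 0.0165) and the tetramer-negative library of Round 2 (adjusted p = 0.0480), and its difference was positive in all 6. In tetramer-negative islet cells, Ins2 was higher than in spleen (edgeR adjusted p = 0.00597), while Ins1 did not pass (adjusted p = 0.0545), beside 13.4% of all genes called higher. With the round as a block, Ins1 passed in this comparison as well (edgeR adjusted p = 0.00241), beside 30.2% of all genes called higher in that fit. It also passed without the tetramer-positive islet library of Round 1 or of Round 2 (adjusted p = 0.0230 and 0.0275), with DESeq2 (adjusted p = 0.00677, beside 15.6% of genes called higher) and without the filter on low counts (adjusted p = 0.00681, beside 10.1%).

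Spleen held no hormone UMI. The size of the difference is thus given as a fold over 3 counts in both spleen libraries, or 0.161 CPM. This is an approximate bound, as it leaves out the counting error of the islet value. The exact upper limit of spleen is 0.198 CPM, so that the true fold may be lower. Outside the hormone-rich barcodes, the islet libraries of both gates together were 14.3-fold over 0.161 CPM for Ins2 and 8.11-fold for Ins1. Sst was 4.21-fold, Iapp 2.26-fold and Gcg 2.19-fold over it. Tetramer-negative cells, for which tissue and gate differ together, held 66 of the 69 UMIs of Sst and 32 of the 36 of Gcg. Of the 69 UMIs of Sst, 55 were in the tetramer-negative library of Round 2, without which its bound was 1.64-fold. For Ppy and Pyy, the 10 and 7 islet UMIs were below 0.161 CPM, and no difference was detectable at this depth. In tetramer-positive islet cells, the same gate as in spleen, Ins2 was 30.4-fold and Ins1 17.5-fold over 0.161 CPM. Iapp was 3.50-fold over it, with 9 of its 10 UMIs in Round 2, and Gcg 1.40-fold, with 4 UMIs. Sst held 3 UMIs (0.169 CPM) there, so that no difference was detectable. The bound of Ins1 in tetramer-positive cells rested on Round 2. It was 4.40-fold without the tetramer-positive library of that round and 26.1-fold without that of Round 1. With the spleen library of Round 1 or Round 2 left out, the 3 counts stood for 0.367 or 0.287 CPM. Every bound was then lower by a factor of 2.28 or 1.78. Over the islet libraries together, Iapp and Gcg were below the first of these levels. Gcg in tetramer-positive islet cells (0.225 CPM) was below both. Fewer cells with a transcript and less transcript per cell cannot be told apart in these sums, and the barcode counts above are the closest view of either.

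Between the gates of the same islet suspensions, neither insulin gene passed the test. Ins2 was 1.42 ± 0.32 (SE) higher on the log2 scale in tetramer-positive than in tetramer-negative cells (edgeR adjusted p = 0.136) and Ins1 1.33 ± 0.71 higher (adjusted p = 0.387), beside 0.113% of all genes called higher. With the round as a block, which pairs libraries from the same pools of mice and the same sequencing, both passed (edgeR adjusted p = 0.00250 for Ins2 and 0.0362 for Ins1), beside 15.7% of all genes called higher in that fit. Much of this difference lay in few barcodes of Round 2. The 4 tetramer-positive barcodes of that round with 5 or more hormone UMIs held 52 of the 62 UMIs of Ins2 and 35 of the 45 of Ins1. With all barcodes of 5 or more left out, Ins2 was at 1.51, 1.67, 2.98 and 0.933 CPM in the 4 islet libraries in the order above, and its difference was 0.31 on the log2 scale (adjusted p = 0.848). Over cells with a productive α and a productive β chain, the difference of Ins2 was -0.11 (adjusted p = 0.959). Without the tetramer-positive library of Round 2, that of Ins1 was -0.31 (adjusted p = 0.811).

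The other 274 barcodes with a hormone UMI held 1 to 4 each and 350 in all, or 3.43 CPM over the islet libraries. At that rate, the UMIs of the spleen libraries would hold 64.0 hormone UMIs, where 0 were counted. Insulin led in this group: Ins2 gave 166 UMIs, Ins1 84, Gcg 35, Sst 32, Iapp 20, Ppy 8 and Pyy 5. Insulin took 68.6% and 70.5% of hormone UMIs in tetramer-negative and 83.3% and 76.9% in tetramer-positive libraries, and the 4 intervals overlapped. Ins2 made up 63.9% and 67.2% of the insulin UMIs in the tetramer-negative libraries and 84.0% in the tetramer-positive library of Round 1, and in that of Round 2 Ins1 and Ins2 had 10 UMIs each, again with overlapping intervals. Of the 274 barcodes, 24 held UMIs of more than 1 of the 7 genes, 18 held both insulins, and 1 held insulin and glucagon together.

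T cell marker UMIs were found in 98.9% of these barcodes and in 98.8% of the islet barcodes with no hormone UMI, with a median of 30 and 20 UMIs. A productive TCR chain of either kind was found less often, in 71.2% (95% interval 65.4 to 76.5%) against 79.7% (79.1 to 80.2%), and the share was lower in 3 of the 4 libraries and higher in the tetramer-positive library of Round 2 (90.9% against 80.4%). A productive α and β chain was found in 56.2% (95% interval 50.1 to 62.2%) and 60.1% (59.5 to 60.8%), and the order differed by library, with 44.9%, 62.8%, 38.5% and 81.8% against 49.1%, 67.3%, 54.0% and 69.8%. Granule genes were detected in 4.38% and 3.82%. Exocrine RNA was found more often: 29.9% (24.6 to 35.7%) held a UMI of the 19 acinar genes, digestive enzymes of the exocrine pancreas, against 18.2% (17.7 to 18.8%). The share was higher in each of the 4 libraries, with 39.3%, 26.3%, 23.1% and 22.7% against 15.2%, 21.4%, 14.9% and 16.0%. Only in the tetramer-negative library of Round 1 did the intervals not overlap. The median depth of the low-count barcodes was 4493 against 3820 UMIs, and 78.1% (72.7 to 82.9%) against 89.0% (88.6 to 89.4%) passed the study's limits. In tetramer-negative cells, 65.2% against 88.3% passed in Round 1 and 83.2% against 90.5% in Round 2, whereas in tetramer-positive cells the order was the other way, with 88.5% against 87.7% and 86.4% against 84.6%. In tetramer-negative cells of Round 1, 21.3% against 7.92% had at least 5% mitochondrial UMIs. The part of depth and of mitochondrial share in these values was not tested.

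Hormone UMIs were not spread as evenly as a Poisson draw in proportion to depth would spread them. Outside the hormone-rich barcodes, 92, 142, 27 and 26 barcodes held a hormone UMI, where such a draw from the same total would give 142, 223, 34.2 and 115. At least 2 UMIs were held by 21, 29, 5 and 8 barcodes, where the draw would give 2.21, 3.89, 0.744 and 5.91. The variance over the mean was 2.83, 4.45, 1.78 and 23.3, and 1.81, 1.56, 1.25 and 1.29 among barcodes with fewer than 5 hormone UMIs. In all 4 libraries the UMIs thus sat in fewer barcodes than the draw would give. Among barcodes with fewer than 5 hormone UMIs, 89, 137, 26 and 22 held at least 1, where the draw would give 119, 171, 29.4 and 25.7. In these numbers the gap was clear in the tetramer-negative libraries and small in the tetramer-positive ones. Among the same barcodes, however, 18, 24, 4 and 4 held at least 2 UMIs, where the draw would give 1.57, 2.28, 0.551 and 0.297. By this measure all 4 libraries were above the draw. After thinning each barcode to 1000 UMIs, 0.372%, 0.408%, 0.652% and 0.506% of barcodes would hold a hormone UMI, with 336, 377, 92 and 148 shallower barcodes left out.

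**Figure D4:**
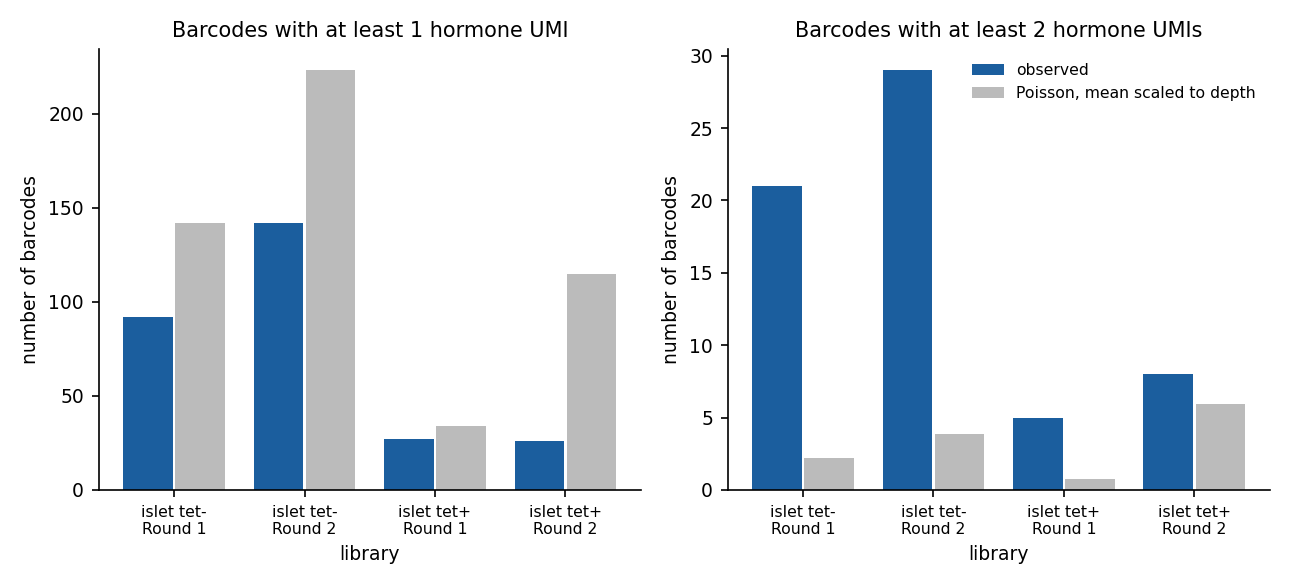
Bars give the number of barcodes (y axis) with at least 1 (left) and at least 2 (right) hormone UMIs in each islet library (x axis), outside the hormone-rich barcodes, beside the number from a Poisson draw with a mean in proportion to the UMIs of each barcode. Fewer barcodes hold a UMI and more hold 2 or more than in the draw in every library, for example 92 against 142 and 21 against 2.21 in tetramer-negative cells of Round 1.

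Nor did the share rise steadily with depth. Within each library, barcodes were split into quartiles by their UMIs from other genes, and 1.62%, 0.705%, 1.15% and 2.13% of barcodes from the shallowest to the deepest quartile held a hormone UMI, summed over the islet libraries. The intervals of the first quartile (1.30 to 2.01%) and of the second (0.494 to 0.974%) did not overlap. Low-count barcodes of the shallowest quartile gave 10.3, 8.81, 16.4 and 11.4 CPM of hormones in the 4 libraries, above each of the other 3 quartiles in the same library, which gave 1.33 to 5.94. The shallowest quartile had a median of 1381 to 2429 UMIs per barcode.

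**Figure D5:**
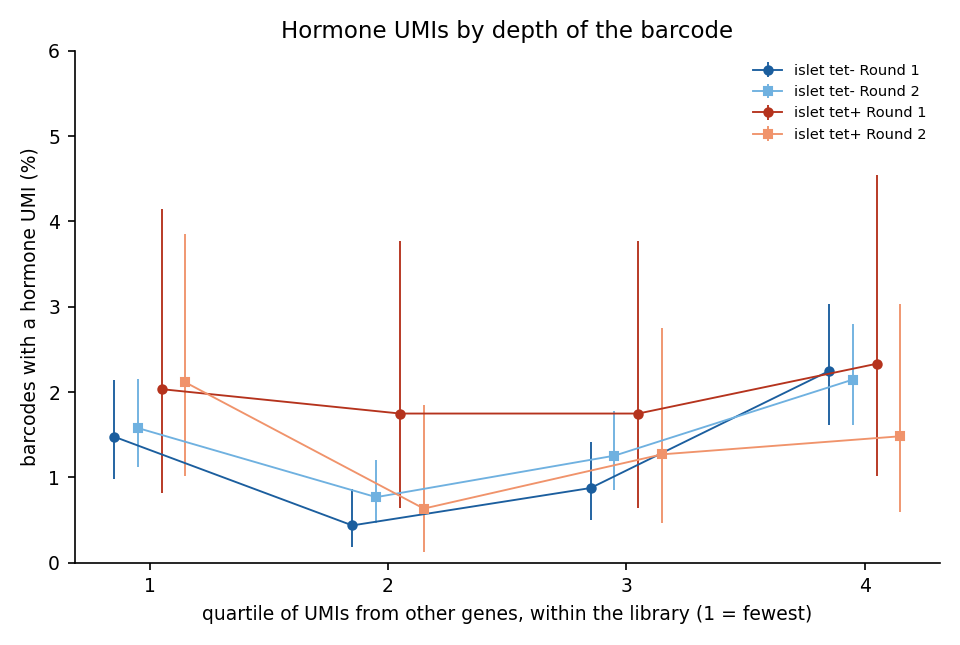
Share of barcodes with a hormone UMI (y axis, %) by quartile of the barcode's UMIs from other genes (x axis, from the fewest to the most) in each islet library, outside the hormone-rich barcodes, with exact binomial 95% intervals as bars. The value of the second quartile is below that of the first in each of the 4 libraries, with 0.438% against 1.48% in tetramer-negative cells of Round 1, and the intervals of the tetramer-positive libraries overlap throughout.

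By the kind of barcode, the 20163 islet barcodes with T cell marker UMIs that were neither hormone-rich, nor among the 5 myeloid ones above, nor among the acinar ones described next held 484 hormone UMIs, or 4.76 CPM (95% interval 4.35 to 5.21), and 1.40% of them held at least 1. In 95 barcodes with at least 5% of UMIs from the acinar genes, 0 of 155751 UMIs were from hormones, which allows up to 19.3 CPM, so that a level like that of the T cell barcodes was not detectable at this depth. A further 176 barcodes with none of these features held 5 hormone UMIs in 3 barcodes, or 37.1 CPM (12.04 to 86.6). The median barcode of these had 651 UMIs. The 6364 spleen barcodes with T cell marker UMIs held none.

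Other RNA of the pancreas moved with the hormones between the tissues. The 19 acinar genes summed to 425 to 926 CPM in islet against 5.64 and 5.87 in spleen, and all 19 were called higher in islet in both comparisons with spleen, where 15.5% and 13.4% of all genes were. As 15 of them had no UMI in spleen and passed the filter by their islet counts, the number called supports nothing by itself. They were led by Ctrb1 (chymotrypsinogen, 12900 islet UMIs and 0 in spleen), Cela2a (10201 and 0) and Prss2 (7503 and 43). Between the islet gates, none of the 19 passed. Their part in the hormone values was not tested. Of the lists for other cells, ductal genes gave 4.68 to 8.18 CPM in islet and 4.69 and 5.38 in spleen, and fibroblast genes 0.280 to 1.99 and 0.191 and 0.244. Myeloid genes gave 17.2 to 27.8 in islet and 17.0 and 17.6 in spleen. Of the 3 that were tested, Lyz2 was 4.57 ± 0.72 (SE) higher on the log2 scale in tetramer-negative islet than in spleen cells (edgeR adjusted p = 0.0105). Cd68 (-0.03) and Itgam (-1.02) did not pass there. In tetramer-positive islet cells Lyz2 did not pass either (edgeR adjusted p = 0.0702). Endothelial genes gave 3.40 to 19.1 in islet and 15.2 and 16.3 in spleen, and B cell genes 16.2 to 45.3 and 69.2 and 75.8, and the members called (Cdh5, Pecam1, Cd79b and Ighm) were lower in tetramer-positive islet than in spleen cells, with Cdh5 and Cd79b lower in tetramer-negative cells as well, where 11.4% of all genes were called lower. Red cell genes gave at most 0.0933 in islet and 0.383 and 0.856 in spleen, and platelet genes at most 0.0285 in islet and 0 to 1.22 in spleen.

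Many of the other genes on the endocrine lists had few or no UMIs, while some, led by Glp1r, had more. Of 9 β cell genes in the files besides the hormones, Slc30a8, Slc2a2, Pdx1, Nkx6-1, Ucn3 and Abcc8 had 0 UMIs in all 6 libraries, and G6pc2 had 1. The list summed to 7.83 to 19.99 CPM in islet and 2.30 and 4.16 in spleen, of which Glp1r, the receptor for glucagon-like peptide 1, gave 869 islet UMIs and Mafa 117. Glp1r was 2.68 ± 0.32 (SE) higher on the log2 scale in tetramer-positive islet than in spleen cells (edgeR adjusted p = 0.00380) and 1.31 ± 0.31 higher in tetramer-negative islet cells (adjusted p = 0.0300), and it also had 53 UMIs in spleen, where the hormones had none. Of the 5 α cell genes besides Gcg, Irx1 and Irx2 were at 0 and the sum was 0.571 to 0.854 CPM in islet and 0.383 and 0.978 in spleen. The 3 δ cell genes besides Sst summed to 0 to 1.04 in islet and to 0.0956 and 0 in spleen, led by Hhex with 66 UMIs in islet and 1 in spleen. The 6 transcription factors of endocrine cells had 7 UMIs in all, with Neurod1 and Rfx6 at 0.

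The 17 granule genes summed to 3.26 to 11.04 CPM in islet and to 10.4 and 12.4 in spleen, and most of these UMIs were from Pam and Scg5. Only Pam and Scg5 passed the filter, and both were lower in tetramer-positive islet than in spleen cells, beside 14.7% of all genes called lower, by a log2 difference of -1.07 ± 0.29 (SE, edgeR adjusted p = 0.0399) for Pam, which amidates peptide hormones, and of -3.77 ± 0.58 (adjusted p = 0.00753) for Scg5. Neither passed in tetramer-negative islet cells or between the gates. Resp18 had 36 UMIs in islet and 0 in spleen, of which 30 were in the Ppy-rich and 5 in the Sst-rich barcode, and Pcsk1n had 20 and 0, of which 14 and 2 were in these barcodes. Chga, a granin, had 41 and 2 UMIs and Vgf 10 and 0, and neither was tested.

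Over the 6 libraries, the genes whose levels in log2(CPM + 1) followed the sum of the 7 hormones most closely were Cxcl9 (Pearson r = 0.976), Atat1 (0.967), D330041H03Rik (0.960), Lyz2 (0.954) and Mreg (0.952). This is a description over 6 points that share depth, round and tissue, in which the highest point is set by the Ppy-rich barcode, and 63 of 11503 genes had an r above 0.9.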

How the data were processed

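The submitters' notes name Cell Ranger and mm10. The authors made 10x 5′ libraries and deposited, for each library, raw UMI counts per gene and barcode and a table of TCR contigs with their UMI counts, without normalization. The study's methods give another Cell Ranger version than the file header (5.0.1). All listed barcodes were used; free RNA was left in, and no doublet caller was run. The hormone genes, the marker lists and the limits were chosen with earlier results of these data known.

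UMIs were summed per library and fitted over all genes with edgeR 4.0.16 (quasi-likelihood test, TMM, filterByExpr, Benjamini-Hochberg, threshold 0.05) in R 4.3.3, with 2 libraries in each of 3 groups, and the code was tested on simulated data. DESeq2 1.42.0 was an alternative. Standard errors are the log2 difference over the root of F. Deviations of same-numbered libraries from their group means correlated (r = 0.780, 0.782 and 0.740 over 11503 genes). Each round drew its cells from its own pool of mice and was sequenced with its own kit and read lengths, and these cannot be told apart; the round as a block was an alternative. Barcodes are not replicates and were described with exact 95% Poisson or Clopper-Pearson intervals (scipy 1.17.1). A TCR chain was counted where the TCR library of the same group and round listed a productive contig with the barcode. The floor was 3 counts. Named were the 7 hormones, up to 3 leading or any called members of a list and the 5 genes most like the hormones over 6 libraries; other names were chosen after their values were seen. A rule for genes shared by hormone-rich barcodes of all 4 islet libraries named none, as 2 libraries had none.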

Additional observations from a re-analysis of the deposited data

How the results depend on the processing

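With the round as a block, the genes called at an adjusted p under 0.05 went from 3484 to 6784 (tetramer-positive islet against spleen), from 2853 to 6657 (tetramer-negative islet against spleen) and from 142 to 3818 (between the islet gates). Leaving out each library in turn gave 1445 to 2527, 733 to 2635 and 0 to 32 calls in the same order. Between the gates, library totals without TMM gave 62 calls, DESeq2 657, no filter 468 and cells with a productive α and β chain 75. Ins2 stayed higher in islet than in spleen and past the threshold in both comparisons under all 16 alternatives. Ins1 stayed higher in the 13 alternatives in which it was tested, with adjusted p of 0.000243 to 0.0796 in tetramer-positive and 0.00241 to 0.159 in tetramer-negative cells. It was not tested within the study's limits, over cells with both chains or without barcodes of 5 or more hormone UMIs, where it failed the filter. Between the gates, the difference of Ins1 was -0.31 to 2.02 on the log2 scale when each library was left out, reversed without the tetramer-positive library of Round 2, and that of Ins2 reversed to -0.11 over cells with both chains. The block moved both insulins past the threshold between the gates, and Ins1 in tetramer-negative islet against spleen. Limits of 1% and 2% gave 5 and 4 hormone-rich barcodes with 91.4% and 90.9% of the hormone UMIs, and limits of 10% and 20% gave the same 2. The share was 91.7% within the study's limits and 88.8% without Pyy. Leaving out a library gave 1 to 2 such barcodes and 38.5 to 93.7% of the UMIs. Hormone UMIs outside these barcodes were 5.17 CPM, and 3.44 without barcodes of 5 or more, an alternative chosen after seeing the data; thinning to 500 UMIs gave 0.303% of barcodes in place of 0.420%. The causes were not tested. At 2 libraries per group and with most hormones under 1 CPM, 5 of the 7 genes did not pass the filter on low counts and were not tested. The fold bounds without each library stand beside them in the text, an alternative chosen after seeing the data.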
